A study of Rattus norvegicus with 64 samples.

Results

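Nd1, Nd2, Nd3, Nd4, Nd4l, Nd5 and Nd6 are the 7 subunits of respiratory complex I that are encoded by the mitochondrial genome. They were taken as the rows with the Ensembl IDs ENSRNOG00000030644 (Nd1), ENSRNOG00000031033 (Nd2), ENSRNOG00000033615 (Nd3), ENSRNOG00000029707 (Nd4), ENSRNOG00000031053 (Nd4l), ENSRNOG00000029971 (Nd5) and ENSRNOG00000029042 (Nd6). All 7 were found among the 32623 gene IDs of both RNA-Seq count tables, 1 from the dorsal hippocampus (HPCd) and 1 from the nucleus accumbens (ACB). The tables hold no gene names, so that the pairing of ID and name could not be checked within them. Bulk RNA-Seq was carried out on tissue punches of both regions from the same 32 Sprague Dawley rats, with 8 rats per treatment and sex. From postnatal day 26, ACE-K males and ACE-K females drank a daily ration of the low-calorie sweetener acesulfame potassium (0.1% w/v in reverse osmosis water, about 15 mg/kg) from a sipper tube. CTL males and CTL females received a sipper tube with an equivalent volume of that water, and all rats had chow and a water bottle. Brains were collected at postnatal day 80. The estrous phase of the females was not tracked. Males carried the animal numbers C91 to C106 and females C107 to C122, so that sex and number range cannot be told apart.

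Complex I (NADH:ubiquinone oxidoreductase) is the entry point of electrons from NADH into the respiratory chain, and it pumps protons across the inner mitochondrial membrane. Nuclear genes encode most of its subunits, and the 7 mitochondrially encoded ones form the core of its membrane arm. Both strands of the mitochondrial genome are transcribed into long precursors that are cut into single RNAs. Nd6 is encoded on the strand opposite to that of the other 6, and Nd4l and Nd4 overlap at their ends and share a single RNA. Neurons rely on oxidative phosphorylation for the energy of synaptic signaling.

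Each HPCd library held 14304052 to 28292936 counts on genes and each ACB library 255545 to 416869, and the HPCd count of a rat was 40.0 to 99.7 times its ACB count. Region and count table cannot be told apart: each region has its own table, and whether both were counted with the same settings is not given in the sources used here. The strand setting of the read counting is not given either. Without strand, reads of Nd6 and of transcripts from the other strand over the same stretch cannot be told apart, nor can reads where Nd4l and Nd4 overlap. With the strand set the wrong way round, counts on a gene would come from transcripts of the opposite strand. Whether either holds for a table was not tested. The paper gives the same approximate number of reads for all samples, so whether the ACB libraries had fewer reads is not known. The mitochondrial genes also have copies in the nuclear genome, and the HPCd table lists 0 alignments that were not unique in each of its 32 columns. The values of all 7 genes are uncertain to that extent. Gene lengths were not available here, so the levels below are shares of counts, not levels per length.

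The share of counts on each subunit differed between the regions, and Nd6 differed by the widest margin. In the HPCd, Nd6 took 0.00796% to 0.0110% of the counts on genes (median 0.00899%, n = 32 rats) and ranked 2297 of the 32623 IDs by its mean share. In the ACB, it took 14.1% to 24.6% (median 18.3%) and ranked 1. The lowest ACB value lay far above the highest HPCd value. The ACB libraries held 43816 to 96429 counts on Nd6, against 1311 to 2573 in the HPCd libraries, whose totals on genes are higher, so that every rat had more Nd6 counts in the ACB (19.3 to 52.5 times, median 33.2). As a share, Nd6 was 1444 to 2430 times higher in the ACB (median 2050), in 32 of 32 rats.

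The antiporter-like subunits Nd2, Nd4 and Nd5 line the proton path of the membrane arm. Nd5 took 0.593% to 0.733% of the counts in the HPCd (median 0.667%, rank 8) and 3.67% to 5.18% in the ACB (median 4.10%, rank 3). Its share was higher in the ACB in 32 of 32 rats, with a median ratio of 6.09 (5.26 to 8.13). The share of Nd2 was lower in the ACB, a direction that depended on the scale, since its log2 CPM was higher in the ACB by TMM. It took 0.752% to 0.936% in the HPCd (median 0.831%, rank 6) and 0.389% to 0.828% in the ACB (median 0.455%, rank 16), and was higher in the ACB in 0 of 32 rats. Its ACB share was a median of 0.543 times the HPCd share (0.475 to 0.961).

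Nd4 was at or near 0 in both tables. In the HPCd, 25 of 32 rats had a count on Nd4, the highest being 4 counts, and all rats together had 41. In the ACB, Nd4 had 0 of 10687131 counts, which allows up to 0.281 CPM (counts per 1000000) over all rats, or 7.20 to 11.7 CPM in a single rat. The mean in the HPCd was 0.0622 CPM, below that limit, so that no difference between the regions was detectable at these counts. Such limits cover counting error only, not reads that the counting left off a gene, so they set no limit on the RNA level. In the HPCd, 0.524% (C100) to 0.589% (C118) of reads were ambiguous between genes. Whether any of them belonged to Nd4 was not tested. Nd4 did not pass the filter on low counts in any comparison. It was tested only in the alternative with no filter, in the HPCd and between the regions, and was not called. Nd4l, which is carried on the same RNA as Nd4, had 12718 to 23740 counts per rat in the HPCd and 145 to 424 in the ACB.

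Nd1 and Nd3 lie near the ubiquinone-binding end of the membrane arm. Nd1 was the subunit with the highest mean share in the HPCd, at 0.787% to 0.960% (median 0.875%, rank 5). In the ACB it took 0.248% to 0.498% (median 0.293%, rank 33), a median of 0.323 times the HPCd share (0.277 to 0.561), and it was higher in the ACB in 0 of 32 rats. Nd3 was the lowest of the 6 detected subunits in both regions, with 0.00324% to 0.00525% in the HPCd (median 0.00374%, rank 5006) and 0.0385% to 0.0780% in the ACB (median 0.0546%, rank 205). Its share was higher in the ACB in 32 of 32 rats (7.80 to 21.9 times, median 14.1). Nd4l, a small subunit that neighbours Nd6 in the complex, had the share ratio closest to 1, with 0.0735% to 0.0967% in the HPCd (median 0.0839%) and 0.0462% to 0.102% in the ACB (median 0.0621%, rank 184). Its ACB share was a median of 0.742 times the HPCd share (0.511 to 1.15) and was higher in the ACB in 1 of 32 rats, C106.

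**Figure D1:**
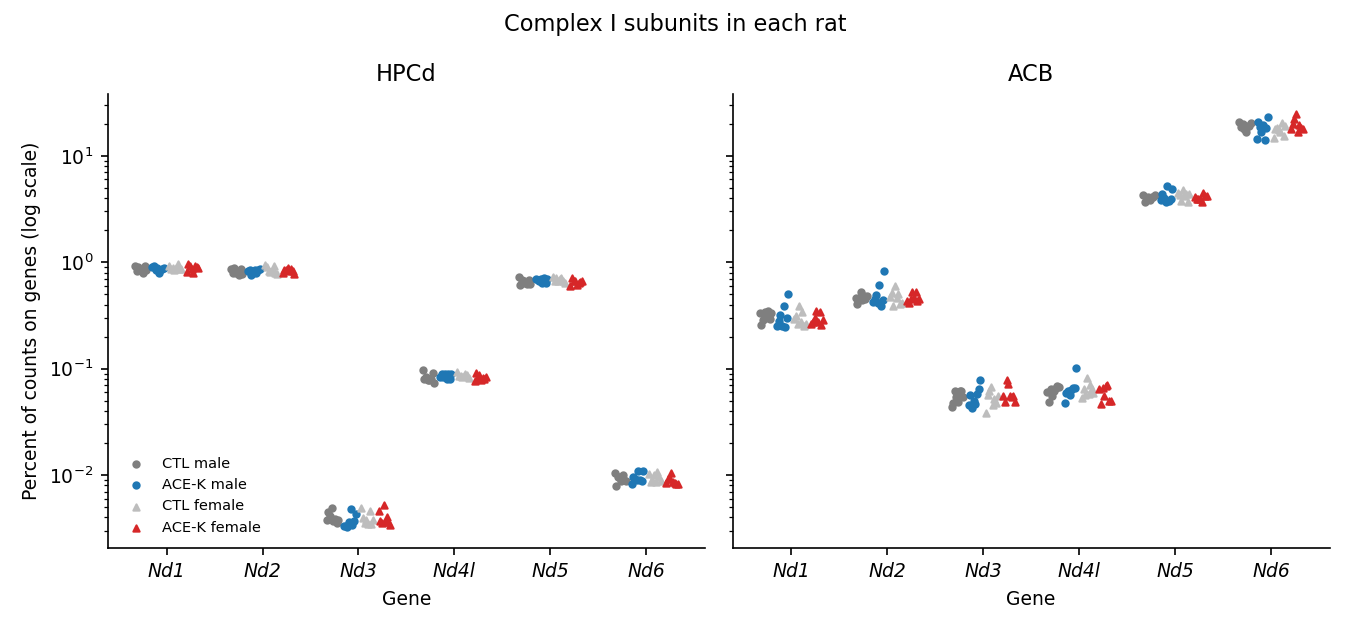
Percent of the counts on genes (log scale) taken by each of the 6 detected subunits in each rat, HPCd on the left and ACB on the right, with a point per rat colored by treatment and sex. Nd6 lay at 0.00796% to 0.0110% in the HPCd and at 14.1% to 24.6% in the ACB, and the 4 groups of a region overlapped for every subunit; Nd4, at or near 0, is not drawn.

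The order of the subunits differed accordingly. By mean share in the HPCd it was Nd1 (0.876% ± 0.0443, SD, n = 32), Nd2 (0.830% ± 0.0449), Nd5 (0.668% ± 0.0358), Nd4l (0.0840% ± 0.00508), Nd6 (0.00924% ± 0.000835) and Nd3 (0.00391% ± 0.000545). The ranges of Nd1 and Nd2 overlapped, and those of the other neighbours in that order did not. In the ACB it was Nd6 (18.6% ± 2.36), Nd5 (4.14% ± 0.361), Nd2 (0.475% ± 0.0838), Nd1 (0.305% ± 0.0528), Nd4l (0.0621% ± 0.0105) and Nd3 (0.0551% ± 0.00959). There the ranges of Nd2 and Nd1, and those of Nd4l and Nd3, overlapped. Together the 7 subunits took 2.26% to 2.69% of the counts in the HPCd and 18.7% to 29.6% in the ACB. Without Nd6 the other 6 took 2.25% to 2.68% and 4.44% to 6.42%. Within those 6, Nd5 made up 25.5% to 28.8% in the HPCd and 76.6% to 84.6% in the ACB.

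To set Nd6 against the subunits of the other strand within the same library, the log2 ratio of its counts to the summed counts of the other 6 was computed (0.5 added to both). This ratio does not depend on library size. It was -8.24 to -7.76 in the HPCd (mean -8.06 ± 0.12, SD, n = 32) and 1.47 to 2.32 in the ACB (mean 1.88 ± 0.18), so that the libraries of the regions did not overlap. The means differed by -9.94 (HPCd minus ACB), a 980-fold difference (permutation test, two-sided, p = 1e-05, the smallest that 100000 resamples can give). Paired by rat, the ratio was lower in the HPCd in 32 of 32 rats, and the differences had an SD of 0.22. Against Nd5 alone, the difference was -8.34, or 323-fold. On the linear scale, the ACB had 2.77 to 5.01 counts on Nd6 for each count on the other 6, and the HPCd 0.00332 to 0.00461.

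**Figure D2:**
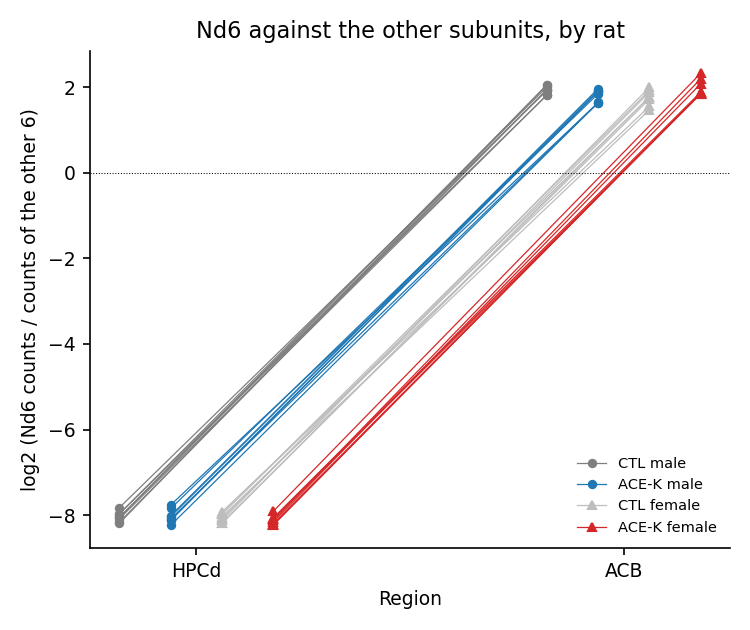
The log2 ratio of Nd6 counts to the summed counts of the other 6 subunits (y axis) in the HPCd and ACB, with a line joining the values of each rat and colors for treatment and sex, which are set side by side. All 32 lines run from at most -7.76 in the HPCd to at least 1.47 in the ACB.

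All genes of both tables were then fitted together (edgeR quasi-likelihood test). TMM normalization gave each library a single scaling factor, on the assumption that most genes do not differ. At an adjusted p under 0.05, 6 of 6 tested subunits differed between the regions, beside 76.8% of all 17728 genes tested. So wide a background means that the call itself sets the subunits apart from few other genes. With most genes called, the assumption of TMM was not met between the tables. As a difference in log2 CPM (HPCd minus ACB), Nd6 was -12.75 (SE 0.08, adjusted p = 2.76e-85), Nd3 -5.60 (SE 0.07, adjusted p = 1.87e-67) and Nd5 -4.41 (SE 0.04, adjusted p = 1.19e-72). These 3 subunits were lower in the HPCd under every scaling tried. Nd4l was -1.34, Nd2 -0.97 and Nd1 -0.26 by TMM, and their directions depended on the scaling. With library size only, they were 0.43, 0.81 and 1.52, and with the size factors of DESeq2, Nd1 alone was above 0 (0.19). The median of all genes tested was 0.80 by TMM and 2.52 with library size only. Relative to that median, all 6 were lower in the HPCd under each of 4 scalings, from -1.05 to -0.99 for Nd1 to -13.55 to -13.49 for Nd6. A scaling shifts all genes by about the same amount, so the agreement of these values over the 4 scalings was given in advance. The median itself depended on the filter, and over the 900 genes with at least 10 counts in every sample it was -3.58. Against that value, the TMM differences of Nd3, Nd5 and Nd6 were still lower in the HPCd, while those of Nd1, Nd2 and Nd4l were higher.

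The question of the study was whether early-life ACE-K consumption left changes in brain gene expression. Within each sex, genes were tested with edgeR and called with the study's thresholds (unadjusted p under 0.05 with a log2 fold change of 0.4 or more in size). None of the 6 tested subunits was called in any region or sex: 0 of 6 in HPCd males (background 1.34% of 15704 genes), 0 of 6 in HPCd females (1.32% of 15651), 0 of 6 in ACB males (4.12% of 5262) and 0 of 6 in ACB females (6.31% of 5154). DESeq2 also called 0 of 6 in each. At an unadjusted p under 0.05 alone, edgeR gave 0, 0, 0 and 1 subunits. At an adjusted p under 0.05, 0.0% of all genes were called in the HPCd of males, the HPCd of females and the ACB of males (785, 635 and 232 genes at an unadjusted p under 0.05; 0 adjusted calls by DESeq2), and 0.0388% in ACB females. DESeq2 made 0 adjusted calls in ACB females as well (smallest adjusted p = 0.0579).

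In the HPCd, the subunits of ACE-K and CTL rats lay close together. Log2 fold changes (ACE-K against CTL) ran from -0.12 (Nd3) to 0.03 (Nd5) in males and from -0.07 (Nd6) to 0.04 (Nd3) in females, with a median over the 6 subunits of 0.01 and -0.02, beside 0.01 and 0.00 over all genes. Nd1 had 7862 to 9355 CPM in CTL males (median 8736) and 7711 to 9272 in ACE-K males (median 8730). Nd6 had 86.6 to 106.7 CPM in CTL females (median 92.3) and 82.0 to 105.5 in ACE-K females (median 85.1). The ranges of both pairs overlapped. For Nd6 in females, however, the ACE-K median lay below the lowest CTL value. The 105.5 CPM belonged to rat C114, and the other ACE-K females had 82.0 to 91.9. The smallest adjusted p of a subunit in the HPCd was 0.979.

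In ACB females, Nd6 was the only subunit with an unadjusted p under 0.05. It had 134740 to 215053 CPM in CTL females (median 176698) and 162506 to 248208 in ACE-K females (median 189545), and the groups overlapped. Its log2 fold change was 0.18 (SE 0.08, unadjusted p = 0.0247, adjusted p = 0.510, edgeR), under the threshold for a call, and the unadjusted p was 0.0801 by DESeq2. The other 5 ran from -0.10 (Nd4l) to 0.15 (Nd3), and the median over the 6 was -0.02, beside 0.00 over all genes.

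In ACB males, 5 of 6 subunits had a log2 fold change above 0 (0.07 to 0.18) and Nd6 was at -0.03 (SE 0.11). The median was 0.08, beside -0.01 over all genes. The smallest adjusted p was 0.975. Nd2 had 4071 to 5334 CPM in CTL males (median 4618) and 3702 to 9900 in ACE-K males (median 4625). The highest value, 9900 CPM, belonged to rat C106, and the other 7 ACE-K males had at most 6481. C106 had the highest CPM of all 32 ACB libraries for each of the 6 detected subunits, and with 416869 it also had the most counts on genes. By share of counts it was not the highest for Nd6, which reached 24.6% in ACE-K females and at most 23.1% in ACE-K males. Without C106, Nd1, Nd2, Nd3 and Nd4l changed sign, the 6 values ran from -0.12 to 0.03, and 0 of 6 were called.

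**Figure D3:**
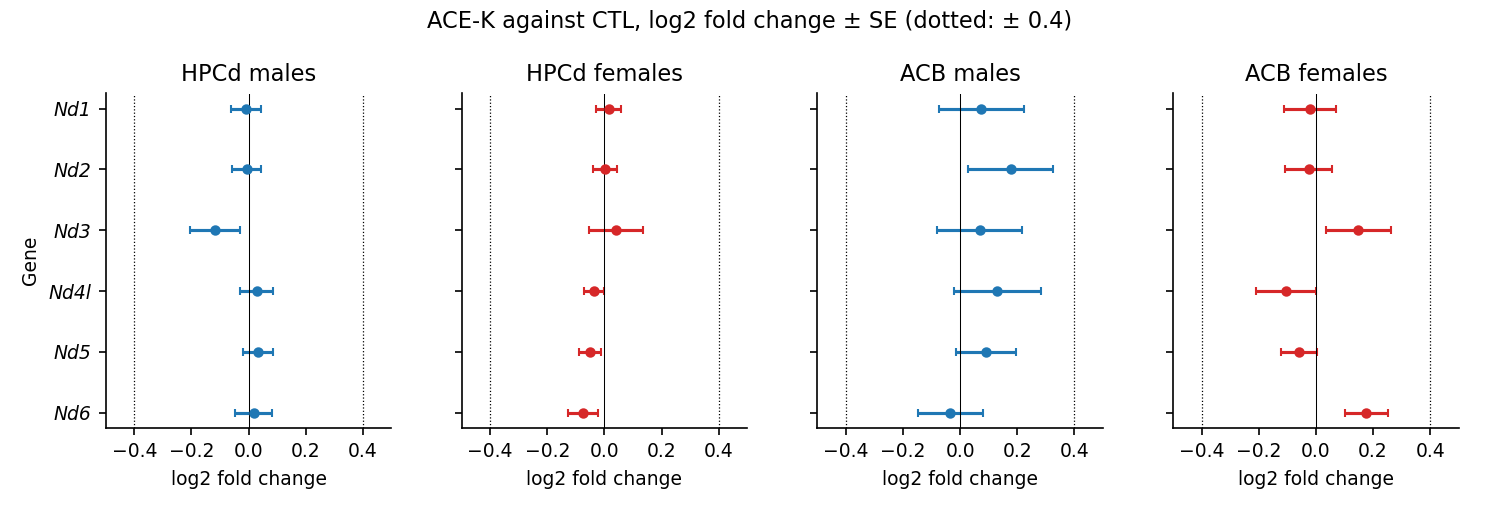
Log2 fold change of ACE-K against CTL rats (x axis, points) with its standard error (bars) for each of the 6 tested subunits, in each region and sex; dotted lines mark the threshold of 0.4. All 24 points lie between -0.12 and 0.18.

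With the 4 groups of each region fitted together, 0 of 6 subunits were called for treatment across sexes, for the Treatment × Sex interaction or for sex, in either region, by edgeR or DESeq2 at an adjusted p under 0.05, and 0 of 6 had an unadjusted p under 0.05 in each of these edgeR tests with TMM. With library size only, 1 of 6 had an unadjusted p under 0.05 for the interaction in each region. The background was 0.0% for treatment and interaction in both regions, 0.899% for sex in the HPCd and 0.0672% for sex in the ACB. Without C106, Nd6 had an unadjusted interaction p of 0.0219 in the ACB (log2 difference -0.29, adjusted p = 0.416).

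The ratio of Nd6 to the other 6 subunits was then compared between treatments. In the HPCd, it was -8.19 to -7.82 in CTL males (median -8.05) and -8.24 to -7.76 in ACE-K males (median -8.06), a difference in means of 0.01 (exact permutation test, two-sided, p = 0.882, n = 8 per group). In HPCd females it was -8.19 to -7.92 (median -8.06) and -8.23 to -7.91 (median -8.14), a difference of -0.07 (exact permutation p = 0.216, n = 8 per group).

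In the ACB, the difference between treatments had opposite signs in the sexes. In males it was 1.82 to 2.06 in CTL rats (median 1.94) and 1.64 to 1.97 in ACE-K rats (median 1.88), with means of 1.95 ± 0.09 and 1.81 ± 0.14 (SD, n = 8; exact permutation p = 0.0455, adjusted over the 4 comparisons 0.0911). In females it was 1.47 to 2.00 in CTL rats (median 1.78) and 1.84 to 2.32 in ACE-K rats (median 1.88), with means of 1.76 ± 0.18 and 1.99 ± 0.19 (SD, n = 8; exact permutation p = 0.0292, adjusted 0.0911). The groups overlapped in both sexes, and neither difference passed the adjusted threshold. The difference between the sexes in the effect of treatment was -0.36 (males minus females). A permutation test, with treatment labels permuted within each sex, gave p = 0.00212, and 0.00848 adjusted over 4 such tests. This test was added after the values by sex had been seen. Without C106 the difference was -0.37 (permutation p = 0.00273), and in the HPCd it was 0.08 (permutation p = 0.372).

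**Figure D4:**
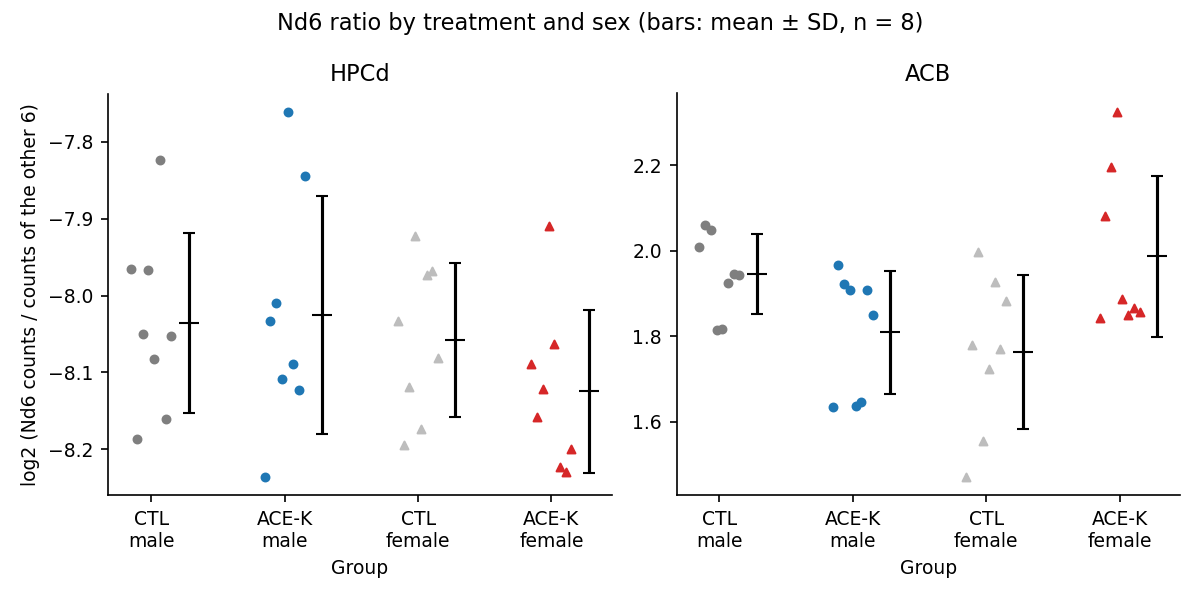
The log2 ratio of Nd6 counts to the summed counts of the other 6 subunits in each rat by treatment and sex (points), with mean ± SD (bars, n = 8), HPCd on the left and ACB on the right, on axes of different range. In the ACB, ACE-K males had a lower mean than CTL males (1.81 and 1.95) and ACE-K females a higher mean than CTL females (1.99 and 1.76), with overlap in each sex.

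The share of counts on all 7 subunits together is given as a description. In the HPCd, it was 2.44% ± 0.137 in CTL males, 2.46% ± 0.0740 in ACE-K males, 2.52% ± 0.116 in CTL females and 2.46% ± 0.112 in ACE-K females (SD, n = 8). In the ACB, it was 24.0% ± 1.54 in CTL males, 23.3% ± 3.74 in ACE-K males, 22.5% ± 1.97 in CTL females and 24.5% ± 2.62 in ACE-K females. The treatment groups overlapped in each region and sex. In punches of bulk tissue, a different number of cells of a type and a different amount of RNA per cell cannot be told apart.

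The spread of the subunits among rats of a group was wider in the ACB table, which also holds fewer counts. The pooled SD of log2 CPM within groups was 0.08 (Nd5) to 0.19 (Nd3) in the HPCd and 0.18 (Nd5) to 0.29 (Nd3) in the ACB. These values include the spread of the TMM scaling between libraries, and the pooled SD was not computed from shares of counts. Counting error alone gives an SD of 0.003 (Nd1) to 0.05 (Nd3) in the HPCd and 0.006 (Nd6) to 0.11 (Nd3) in the ACB, below the spread between rats for each subunit.

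Rats with more of a subunit than their group mean tended to have more of the others in the ACB. Over 32 rats, with log2 CPM centred on the mean of each treatment and sex group, 15 of 15 pairs of subunits had a positive Pearson's r with an adjusted permutation p under 0.05 (r 0.448 to 0.971, median 0.741). The highest was that of Nd1 and Nd2 (r = 0.971, rho = 0.919, adjusted permutation p = 3.75e-05 for r and 5e-05 for rho), with 0.949 after the 2 rats farthest from the median of Nd1 were left out. On this scale, Nd6 followed the subunits of the other strand, with r from 0.628 (Nd4l) to 0.774 (Nd1). Without C106, its r ran from 0.474 (Nd4l) to 0.693 (Nd1). The lowest r of the 15 was that of Nd3 and Nd5 (0.448, rho = 0.338, adjusted permutation p = 0.0335 for r and 0.0856 for rho). Without C106, 12 of 15 pairs passed (r 0.251 to 0.954, median 0.605), and the 3 that did not were those of Nd3 with Nd1, Nd2 and Nd5. The values of a pair share a library, its total count and its scaling. Relations between subunits were not computed from shares of counts or within single groups.

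In the HPCd, 9 of 15 pairs passed (r -0.119 to 0.854, median 0.418). Nd1, Nd2, Nd4l and Nd5 formed a group in which all 6 pairs passed, from 0.573 (Nd2 and Nd4l) to 0.854 (Nd4l and Nd5; rho = 0.845, adjusted permutation p = 7.5e-05 for both, 0.834 without the 2 rats farthest from the median). Nd6 went with Nd3 (r = 0.506, rho = 0.412, adjusted permutation p = 0.0125 and 0.0486, r = 0.319 without the 2 farthest rats) and with Nd2 (r = 0.418, rho = 0.358, adjusted permutation p = 0.0401 and 0.0894, r = 0.491 without them). Nd2 also went with Nd3 (r = 0.390, rho = 0.427, adjusted permutation p = 0.0454 and 0.0349, r = 0.345 without them). With Nd1, Nd4l and Nd5 the r of Nd6 was 0.123, 0.387 and 0.345, and these did not pass. Nd6, read from the opposite strand, and Nd3 were also the least abundant of the 6 detected subunits in that region.

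**Figure D5:**
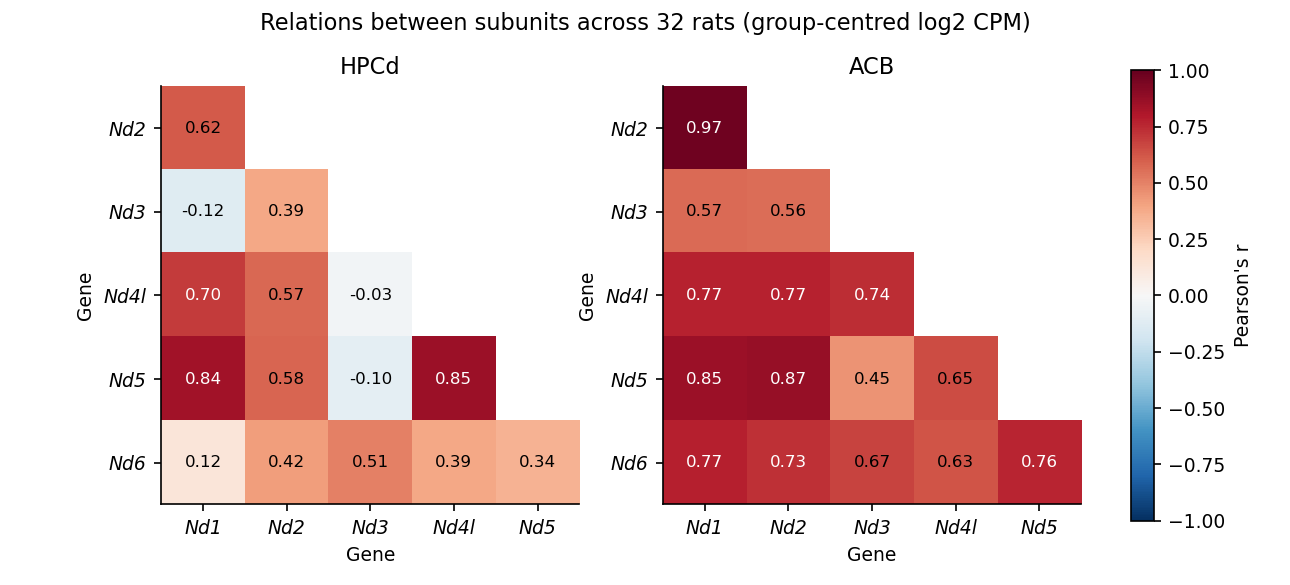
Pearson's r between each pair of the 6 detected subunits across 32 rats, from log2 CPM centred on the mean of each treatment and sex group, HPCd on the left and ACB on the right, with the color scale running from -1 to 1. In the ACB all 15 values are positive, and in the HPCd those of Nd3 with Nd1, Nd4l and Nd5 lie between -0.12 and -0.03.

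Values in the HPCd also moved with properties of the library. The HPCd column headers end in an S and a number, which was taken as a library number, although no label says what it is. Its mean was 16.5 in each of the 4 groups. Of 21 relations with the library number, the share of reads assigned to no gene (20.3% to 24.3%) and the counts on genes, 5 had an adjusted permutation p under 0.05 for r. Those were the Nd6 ratio with the library number (r = -0.602, rho = -0.570, adjusted permutation p = 0.00987, r = -0.625 without the 2 farthest rats) and with unassigned reads (r = 0.538, rho = 0.651, adjusted permutation p = 0.0134, r = 0.563 without them), Nd6 with unassigned reads (r = 0.501, rho = 0.466, adjusted permutation p = 0.0205, r = 0.476 without them), Nd3 with the library number (r = -0.561, rho = -0.397, adjusted permutation p = 0.0134, r = -0.564 without them) and Nd3 with the counts on genes (r = -0.509, rho = -0.418, adjusted permutation p = 0.0205, r = -0.442 without them). For rho, the first 2 of these passed as well, with adjusted permutation p = 0.0139 and 0.00378, and the other 3 did not. The part of these properties in the relations between subunits was not tested. In the ACB, where the columns carry no library number, 0 of 7 relations with the counts on genes passed (r 0.007 to 0.408, smallest adjusted permutation p = 0.222).

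Between the regions of a rat, 1 of 7 relations (the 6 detected subunits and the ratio) passed for r. Nd6 in the HPCd and in the ACB had r = 0.567 (rho = 0.473, adjusted permutation p = 0.0125 for r and 0.0761 for rho, r = 0.404 without the 2 rats farthest from the median). C106 had the highest Nd6 CPM of 32 rats in both regions, 110 in the HPCd and 276556 in the ACB. By share of counts, it was the highest in the HPCd (0.0110%) but not in the ACB. Without C106, r was 0.473 (adjusted permutation p = 0.0684), and 0 of 7 passed. For the Nd6 ratio, r was 0.0543, and for the other 5 subunits r ran from -0.0560 (Nd4l) to 0.336 (Nd2).

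The genes whose values followed the subunits most closely across rats are given by ID, since the tables do not pair IDs with names. In the HPCd, among 14243 IDs with a mean of at least 10 counts, ENSRNOG00000030371 (r = 0.754), ENSRNOG00000031766 (r = 0.739) and ENSRNOG00000030700 (r = 0.712) were most like the mean of the 6 other subunits, which includes Nd4 with its 0 to 4 counts per rat. Without Nd4 they were ENSRNOG00000030700 (r = 0.806), ENSRNOG00000030371 (r = 0.782) and ENSRNOG00000031979 (r = 0.668). For Nd6 they were ENSRNOG00000037951 (r = 0.634), ENSRNOG00000008475 (r = 0.630) and ENSRNOG00000002327 (r = 0.618). In the ACB, among 2138 IDs, ENSRNOG00000031766 (r = 0.920), ENSRNOG00000034234 (r = 0.897) and ENSRNOG00000030371 (r = 0.893) were most like the mean of the other subunits, with or without Nd4. For Nd6 they were ENSRNOG00000012314 (r = 0.823), ENSRNOG00000032882 (r = 0.808) and ENSRNOG00000013583 (r = 0.791). Fewer IDs reached the minimum in the ACB, so the lists of the 2 regions were drawn from different sets. These are descriptions over 32 rats that share libraries, with no test.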

How the data were processed

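Single-read RNA-Seq was made from HPCd and ACB punches of 32 rats (NuGen Universal Plus mRNA-seq libraries, Illumina NextSeq 550). The authors trimmed reads with Trimmomatic, aligned with STAR to Rnor6.0, obtained gene counts with HTSeq and deposited these raw counts, with 1 table per region and 1 column per rat. Versions and the strand setting are not given in the sources used here. HTSeq summary rows of the HPCd table (20.3% to 24.3% of reads on no gene) were left out of library sizes and tests. Columns were assigned to rats by animal number, and all 64 could be assigned.

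Counts were tested with edgeR 4.0.16 (R 4.3.3; TMM, quasi-likelihood test, Benjamini-Hochberg adjustment over all genes) on genes that reached a normalized count of 5 in 3 or more samples, which is 1 reading of the study's filter; DESeq2 1.42.0 was an alternative. CPM are counts per 1000000 of the TMM-scaled library size, and log2 CPM used a prior count of 2. Ratios and relations were tested by permutation (exact for 8 against 8 rats, 100000 resamples otherwise, two-sided). Alternatives were other size factors, other filters, a joint fit of the 4 groups, the library number as a covariate, and leaving out rat C106 in the ACB. The scripts were checked on simulated data. No pair of columns within a group agreed within sampling noise (chi-square per degree of freedom at least 4.07 in the HPCd and 1.58 in the ACB, 112 pairs each), so none was treated as a library deposited in duplicate. Same-numbered HPCd and ACB samples come from the same rat, so the region comparison was also fitted with rat as a block. The treatment groups share no rat.

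The members and lists were chosen with earlier results of these data known. All 7 subunits are named in every comparison, with the 3 IDs most like them in each region. Lists of other oxidative phosphorylation genes and of marker genes of the hippocampus, striatum, choroid plexus, vessels, meninges and glia were not used here, since the tables and the reference do not pair IDs with names. The labelled regions could therefore not be checked against marker genes. The study removed 1 ACE-K sample of the ACB without naming it, and all 16 were kept here. Sequences of the mitochondrial genes were not used here.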

Additional observations from a re-analysis of the deposited data

Results flagged for a closer look

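The criterion of Dixon was applied 64 times, to several quantities in each group of 8 rats, and 5 times a value had a gap to its nearest neighbour that was wide for the range of its group (about 1 in 20 is flagged by chance). In the ACB, 3 of the 5 belonged to the same library, ACE-K male C106: Nd2 at 9900 CPM (the other 7 males 3702 to 6481), Nd3 at 932 CPM (414 to 653) and Nd4l at 1216 CPM (433 to 672). In the HPCd, ACE-K female C114 had 105.5 CPM of Nd6 (the other 7 females 82.0 to 91.9), and CTL female C117 had 9587 CPM of Nd1 (8369 to 8901).

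The effect of ACE-K on the log2 ratio of Nd6 to the other subunits differed between the sexes in the ACB, by -0.36 (males minus females; treatment labels permuted within sex, permutation p = 0.00212, 0.00848 adjusted over 4 tests). It was -0.14 in males and 0.22 in females, with overlapping groups, and the test was added after the values by sex had been seen.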

How the results depend on the processing

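The counts of called subunits were the same under all alternatives run: 0 of 6 (0 of 7 where no filter let Nd4 in) for treatment, interaction and sex, and 6 for the regions. With rat as a replicate block, that is, paired by rat, 6 of 6 subunits were called between the regions, with log2 differences of -12.74 to -0.23. The block was fitted for that comparison alone, since the treatment and sex groups share no rat. The paired difference of the Nd6 ratio was -9.94, as without pairing. Directions between the regions did change with scaling. Nd1 was 0.19 with DESeq2 and with its size factors in edgeR. With library size only, Nd1 was 1.52, Nd2 0.81 and Nd4l 0.43. The median of all genes moved with them, from 0.80 by TMM to 2.52 with library size only. Why the scalings differ was not tested.

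Against Nd5 alone, the ratio difference in HPCd males turned to -0.0192, and that in ACB males lost its unadjusted call (-0.13, exact permutation p = 0.0575), as it did without C106 (-0.14, exact permutation p = 0.0530). Summed without Nd6, the share difference turned to 0.219 percentage points in ACB males and -0.204 in ACB females. The relation of Nd1 between the regions turned to r = -0.0748 with log2 percent and -0.0661 without C106, and that of Nd6 fell to 0.473 without C106.

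No uncalled fold change below passed a threshold. With library size only, ACE-K against CTL was 0.00125 for Nd1 and 0.00400 for Nd2 in HPCd males and -0.00906 and -0.0222 in HPCd females. Treatment across sexes was -0.00391 for Nd1 in the HPCd, and -0.000730 for Nd1, -0.00906 for Nd4l and -0.00390 for Nd5 in the ACB. The interaction in the HPCd was 0.0103 for Nd1 and 0.0262 for Nd2, and sex for Nd5 was -0.000466 in the HPCd and -0.00301 in the ACB. With TMM computed without the 7 subunits, an alternative added after the data were seen, Nd1 was -0.00115 for treatment in the HPCd and Nd3 0.0135 for sex in the ACB. Without C106, ACB males were at -0.0908 (Nd1), -0.00541 (Nd2), -0.0583 (Nd3) and -0.0332 (Nd4l), treatment across sexes at -0.0572 (Nd1), -0.0170 (Nd2), -0.0693 (Nd4l) and -0.0166 (Nd5), the interaction at -0.0612 (Nd1), and sex at -0.00807 (Nd2), -0.00692 (Nd4l), -0.0147 (Nd5) and -0.0170 (Nd6).

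TMM without all mitochondrial genes, ratios per kilobase and a library number covariate in the ACB were not run, since the sources used here mark no other mitochondrial genes and give no lengths or ACB library numbers. In the ACB, the low number of counts on genes limits Nd3 and Nd4l (means of 185 and 209 counts per rat) and Nd4.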
